A study of Mus musculus with 31 samples.

Results

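The comparison set the 8 arrays with the highest levels of 4 activity-induced genes against the 8 with the lowest, out of 31 mouse brain arrays, whatever the genotype. The arrays were selected on Fos, Egr4, Arc and Junb in the authors' processed log2 values. Each gene was turned into a z-score, its distance from its own mean over the 31 arrays in SD, and the score of an array was the mean of its 4 z-scores. The 16 arrays at both ends entered the comparison and 15 middle arrays did not. The sides are defined by measured values and are not groups of the study, so a call below says only that a gene moved with the score across these arrays.

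The arrays measured RNA from tissue of the bed nucleus of the stria terminalis and the preoptic area (BNST/POA), forebrain regions of sexual and social behaviour. All mice were of the MF1 strain and aged 152 days, and came from the Sex Chromosome Trisomy model of Klinefelter syndrome, the human condition of XXY males. There were 8 arrays each of XX females, XXY males and XY males and 7 of XX males, with no treatment named in the labels. In the model, testes depend on Sry carried apart from the Y chromosome. The sample titles give sex and sex chromosomes, and the sample descriptions name Sry for every male group and not for the XX females. The sample descriptions place 5 arrays per group in batch 1 and the rest in batch 2, which has 2 XX males and 3 of every other group. The arrays are called biological replicates, with no animal named, so a p-value here covers the spread between samples, which may be in part technical.

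Immediate early genes are transcribed within minutes of synaptic input and calcium entry, from factors already present in the nucleus, chiefly CREB and SRF. Their products include transcription factors, which switch on later genes, and proteins acting at the synapse. In brain tissue Fos and its relatives are used as markers of recently active neurons, and in the preoptic area they are known to respond to mating, parental care and social odours. Of the ranking genes, Fos and Junb encode partners in the AP-1 transcription factor, Egr4 encodes a zinc-finger factor, and Arc encodes a protein that drives the removal of AMPA receptors from synapses.

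The promoters of the ranking genes are shown because these genes chose the arrays together. Each sequence runs from 250 bases before the start of the gene to 50 bases after it on its own strand, from RefSeq on GRCm38.p6. Capitals mark TGACG or its reverse complement CGTCA, the letters of a CREB half-site, searched on both strands.
Fos: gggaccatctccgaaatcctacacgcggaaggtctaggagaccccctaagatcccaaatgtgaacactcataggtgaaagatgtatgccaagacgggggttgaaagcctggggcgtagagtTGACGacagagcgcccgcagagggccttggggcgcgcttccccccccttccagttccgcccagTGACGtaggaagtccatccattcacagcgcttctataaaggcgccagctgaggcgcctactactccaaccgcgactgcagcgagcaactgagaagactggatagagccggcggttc
Egr4: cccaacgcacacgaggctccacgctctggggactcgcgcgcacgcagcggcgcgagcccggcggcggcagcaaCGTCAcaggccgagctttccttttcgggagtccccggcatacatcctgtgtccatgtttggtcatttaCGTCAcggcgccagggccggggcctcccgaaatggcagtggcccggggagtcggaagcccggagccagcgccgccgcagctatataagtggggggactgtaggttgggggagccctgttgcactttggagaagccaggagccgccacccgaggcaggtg
Junb: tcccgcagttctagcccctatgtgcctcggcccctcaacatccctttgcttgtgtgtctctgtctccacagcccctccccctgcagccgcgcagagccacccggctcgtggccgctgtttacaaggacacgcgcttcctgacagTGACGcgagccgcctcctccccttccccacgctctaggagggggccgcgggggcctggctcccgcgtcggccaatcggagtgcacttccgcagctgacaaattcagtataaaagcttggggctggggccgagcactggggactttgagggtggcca
The Fos window is chr12:85473640-85473939 on the + strand, with matches starting 129 and 66 bases before the start. The Egr4 window is chr6:85513540-85513839 on the - strand, with matches 177 and 109 bases before the start. The Junb window is chr8:84978699-84978998 on the - strand, with a match 106 bases before the start. These letters occurred in 6837 of the 32851 promoters of the table, or 20.8%, so a match is a description and not a site. Arc and Egr1 are named only.

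Detection and brightness overlapped between the sides. Of 25697 probes, 50.64% to 54.11% were detected on the high arrays and 52.15% to 54.92% on the low arrays, and median intensities were 149.3 to 184.1 and 150.9 to 185.9. Arrays correlated at 0.954 to 0.991 with each other. Component 1 of the values normalized here held 32% of the variance, and XX male 6, labelled batch 1, lay with batch 2 on it. It is a middle array, so the comparison of sides did not use it. The tissue label was set against 42 markers of hypothalamic and preoptic neurons, of which 27 were tested and 23 were detected on all 31 arrays, among them Esr1, Gal and Calcr. The others are not analysed here.

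Scores of the high arrays lay between 0.683 and 1.20, with a median of 0.889, and those of the low arrays between -1.25 and -0.698, with a median of -0.943. Neither end was set off by a gap. The last high array, XXY male 5 at 0.683, was followed by XX male 2 at 0.634, and the first low array, XX male 7 at -0.698, came after XXY male 6 at -0.683. The score was thus a graded quantity that was divided at near ties.

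**Figure D1:**
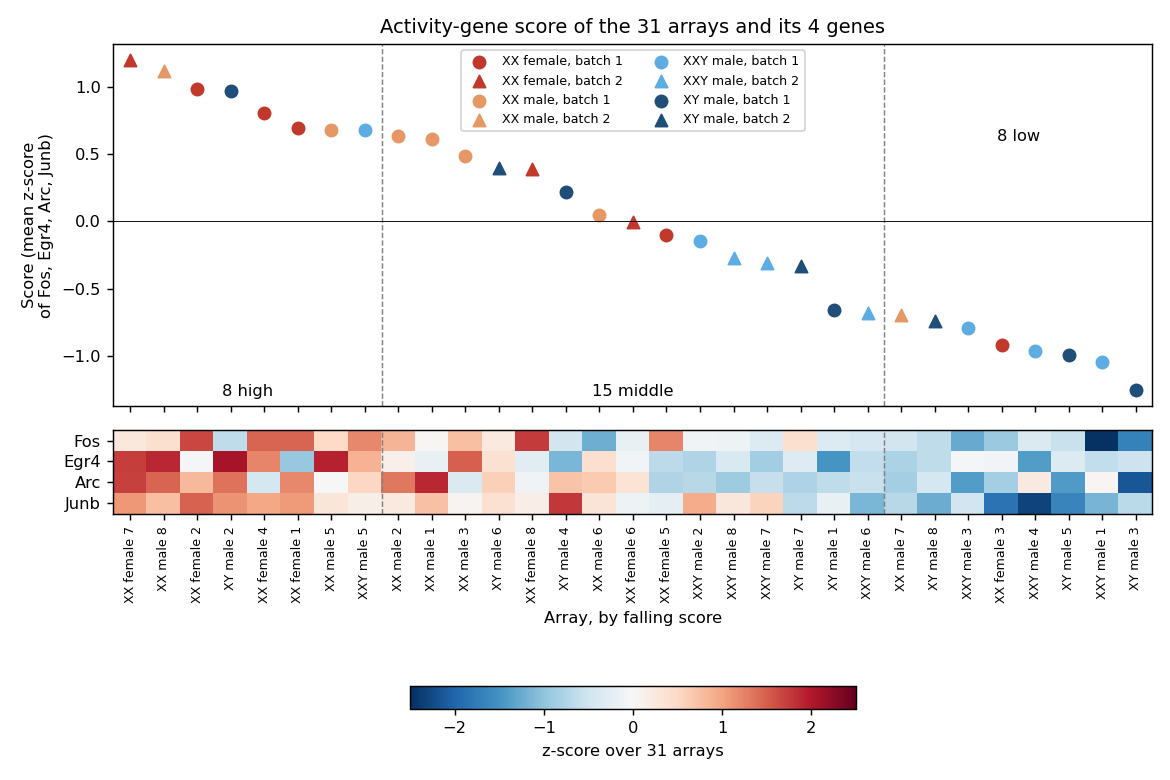
The upper panel plots the score of each of the 31 arrays (mean z-score, no unit) in falling order, with colour for the genotype group, shape for the batch and dashed lines at the limits of the 8 high and 8 low arrays. The lower panel shows the z-scores of the 4 ranking genes in the same order; the scores fall without a gap at either dashed line, and single genes depart from the score in several arrays.

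The 4 ranking genes are given as a description, since they chose the arrays. In the authors' log2 values, Fos lay at 8.75, 9.58 and 10.04 (lowest, median and highest) on the high arrays and at 7.73, 8.67 and 8.90 on the low arrays. Egr4 lay at 7.07, 8.29 and 8.58 on the high arrays against 6.85, 7.26 and 7.53 on the low arrays. Arc lay at 7.44, 8.04 and 8.33 against 6.73, 7.26 and 7.71. Junb lay at 8.02, 8.34 and 8.50 against 7.13, 7.53 and 7.79, and was the ranking gene whose sides did not overlap.

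The 4 genes were not high together on every high array. All 4 stood above their own means on 3 of the 8 high arrays, XX female 7, XX male 8 and XXY male 5, and all 4 stood below on 6 of the 8 low arrays. XY male 2 reached the high side with Egr4 at a z-score of 2.06, the highest of all arrays, and Fos at -0.64. In the reverse pattern, XX female 1 had Fos at 1.45 and Egr4 at -0.94. XX female 4 had Fos at 1.45 and Arc at -0.43. On the low side, XXY male 4 had Junb at -2.31 and Arc at 0.22, and XXY male 1 had Fos at -2.47 and Arc at 0.05. A high array is therefore one with a high mean, and which of the 4 genes carried it differed.

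The genotype labels, which the score did not use, were found on both sides in unequal numbers. The high arrays were 4 XX females, 2 XX males, 1 XXY male and 1 XY male, and the low arrays were 1, 1, 3 and 3 of these groups. The make-up by group did not differ past the threshold (Fisher's exact test, two-sided, p = 0.347). Both sides held 6 arrays of batch 1 and 2 of batch 2 (Fisher's exact test, two-sided, p = 1). Median scores were 0.54 in the 8 XX females and 0.61 in the 7 XX males, against -0.49 in the 8 XXY males and -0.50 in the 8 XY males, and every group held arrays of both sides. The XX groups, without a Y chromosome, thus had the higher medians and made up most of the high arrays. The XXY and XY males made up most of the low arrays. That split by the Y chromosome was not tested.

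The near ties bear on that make-up. The score was also taken from the scanner values normalized here, after removal of the batch difference. It correlated at 0.997 with the first score, and 3 arrays left the sides and 3 entered. XX males 1 and 2 then replaced XX male 5 and XXY male 5 among the high arrays, and XXY male 6 replaced XX male 7 among the low arrays. The high arrays then held 4 XX females and 3 XX males, with 1 XY male and no XXY male. The low arrays held 4 XXY males, 3 XY males and 1 XX female, and Fisher's exact test (two-sided) gave p = 0.0185. The call on the make-up thus depended on arrays at the limits of the sides. Xist, whose RNA silences an X chromosome where there are several, differed by 1.09 (SE 0.604, limma adjusted p = 0.529) between high and low arrays. The X-linked demethylase gene Kdm6a differed by 0.14, and neither passed the threshold. XXY males also have more than a single X, so neither gene separates the groups with and without a Y chromosome. Xist was detected on 7 of 8 high and 5 of 8 low arrays, where the high side held 1 XY male and the low side 3.

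Across all other genes, the high arrays differed from the low arrays in 1 gene. Of 11708 tests, 8969 on named genes and 2739 on unnamed probes, 1 passed, or 0.00854% (limma moderated test with batch as a term, Benjamini-Hochberg adjusted p under 0.05). An unadjusted p under 0.05 was reached by 1305 genes, against 585 given by chance. Of these, 739 were higher on the high arrays, or 6.31% of all tests, and 566 lower, or 4.83%. The median difference over all genes was -0.00065, and 49.8% of genes were higher.

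The gene that passed was Egr1 (ILMN_2662926, chromosome 18), a zinc-finger transcription factor of the family of Egr4 and one of the most used markers of neuronal activity. After removal of the batch difference, its log2 signal lay at 11.97, 12.04 and 12.42 (lowest, median and highest) on the 8 high arrays and at 11.10, 11.29 and 11.83 on the 8 low arrays. Every high array thus lay above every low array. The middle arrays spanned 11.39 to 12.12, with a median of 11.78, and overlapped both sides. Egr1 rose 1.69-fold on the high arrays (95% interval 1.45 to 1.97; log2 difference 0.76, SE 0.104; limma adjusted p = 0.0207). The difference was 0.75 within batch 1 and 0.78 within batch 2.

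Egr1 kept a positive difference in every alternative setting run, while its call was lost in 16 of 28 of them. Its adjusted p was 0.261 without a batch term and 0.306 with the genotype group as a further term, and the difference in that fit was 0.75. Leaving out a single array ended the call for XX females 2, 3 and 4, XX males 7 and 8, XXY males 1, 3 and 5 and XY males 3 and 8 (limma adjusted p between 0.053 and 0.0843, differences from 0.72 to 0.77). Within the 15 middle arrays, which the comparison of sides did not use, Egr1 changed by 0.19 per unit of score (SE 0.149, unadjusted p = 0.224), which did not pass.

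**Figure D2:**
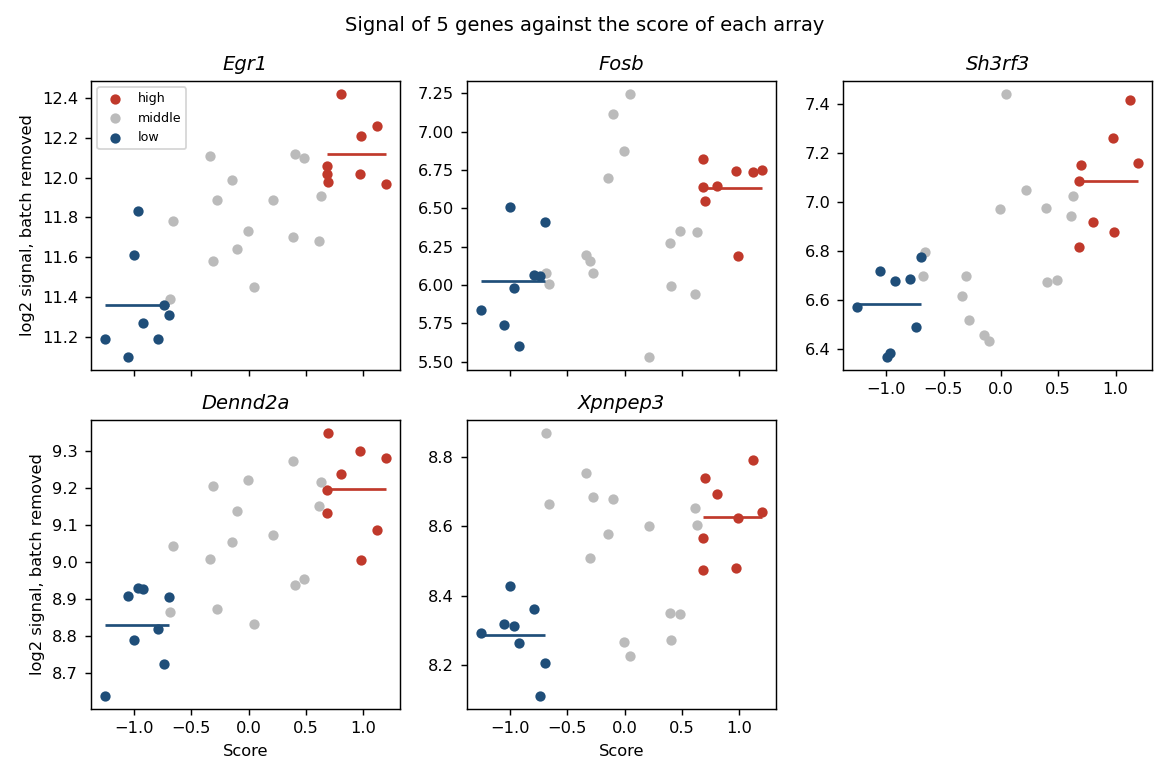
Each panel plots the log2 signal of 1 gene, with the batch difference removed, against the score of the 31 arrays, with the high arrays in red, the middle arrays in grey and the low arrays in blue and lines at the means of the high and low arrays. Egr1 is the gene that passed; its high arrays start at 11.97 and its low arrays end at 11.83, while 1 high array of Fosb lies at 6.19, within the range of the low arrays.

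The next genes by p did not pass. Sh3rf3, which encodes an SH3-domain ubiquitin ligase, lay between 6.81 and 7.42 on the high arrays and between 6.37 and 6.77 on the low arrays, a log2 difference of 0.50 (SE 0.0857, adjusted p = 0.119), while another of its probes gave 0.22 (SE 0.105). Dennd2a, an activator of a Rab protein of membrane traffic, lay between 9.01 and 9.35 against 8.64 and 8.93, a difference of 0.37 (SE 0.0643, adjusted p = 0.119). Xpnpep3, an aminopeptidase gene, differed by 0.34 (SE 0.0619, adjusted p = 0.136). The sides did not overlap in any of these 3 genes. Over all tests the high arrays lay wholly above the low arrays in 14, or 0.12%, and wholly below in 6, or 0.0512%. The latter include Ppm1m, a protein phosphatase gene, at -0.30, Capsl at -0.54 and Tram1, a protein of the translocation channel of the endoplasmic reticulum, at -0.23.

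Fosb, the close relative of Fos, came sixth by p and is the nearest of the written immediate early genes. Its log2 signal lay at 6.19, 6.69 and 6.82 on the high arrays and at 5.60, 6.02 and 6.51 on the low arrays, so that the sides overlapped. The difference was 0.61 (SE 0.12, limma adjusted p = 0.14), with 0.64 within batch 1 and 0.51 within batch 2. Its probe was detected on 29 of 31 arrays and is dim, and near background a difference understates the change. In the middle arrays Fosb spanned 5.53 to 7.25, beyond both sides, with a slope of -0.11 per unit of score (unadjusted p = 0.722). Without XY male 5 the difference was 0.69 and Fosb passed (adjusted p = 0.0366).

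The list of immediate early transcription factors, which holds Fosb and was written without Egr1 and the ranking genes, was spread around 0. Of 30 written, 14 had a named probe past the filter on dim probes, and Npas4, Nr4a1, Egr2 and Egr3 are among the 16 not analysed here. Members past the threshold were 0 of 14, beside 0.00854% of all tests, and 8 were higher, with a median of 0.07 (0.03 without XX female 1). Nfil3, a repressor that also acts in the circadian clock, differed by 0.29 (SE 0.0751, adjusted p = 0.207), and Per1, a clock gene induced by CREB, by 0.18 (SE 0.077). In the opposite direction stood Csrnp1, a gene known to be induced by axin and cytokines, at -0.67 (SE 0.209, adjusted p = 0.284). Jun, another AP-1 member, and Jund differed by -0.18 and -0.17, and Nr4a2, an orphan nuclear receptor, by -0.13. The mean of the list per array spanned -0.05 to 0.10 on the high arrays and -0.09 to 0.05 on the low arrays, so that it did not separate the sides.

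Immediate early regulators of signalling were more often higher than lower, with 0 of 28 past the threshold. 23 were higher, and the median was 0.09, beside -0.00065 over all genes. Without the XX females 18 of 28 were higher, with a median of 0.12. Within the middle arrays 17 of 28 slopes were positive, with a median of 0.0083 per unit of score. Gadd45g, which takes part in stress kinase signalling and DNA demethylation, lay at 10.64, 11.05 and 11.33 on the high arrays and at 10.08, 10.52 and 10.89 on the low arrays. That made a difference of 0.53 (SE 0.124, adjusted p = 0.201), and another probe of the gene gave 0.50 (SE 0.196). Plk2, a kinase that weakens synapses after strong activity, differed by 0.36 (SE 0.116, adjusted p = 0.294), and Homer1, a scaffold of metabotropic glutamate receptors, by 0.34 (SE 0.113), with another probe at 0.19 (SE 0.121). Rgs2, which turns off G protein signals, differed by 0.38 and the MAP kinase phosphatase gene Dusp4 by 0.35. Pim1, a survival kinase gene, was at -0.25 (SE 0.114).

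Genes that follow activity later, mostly secreted factors, gave a median of 0.12 with 17 of 20 higher and 0 past the threshold. Peg10 differed by 0.38 (SE 0.137, adjusted p = 0.319) and Cdkn1a, a cell cycle inhibitor, by 0.54 (SE 0.243), with its other probes at 0.65 and 0.20. Bdnf, a neurotrophin and a classic late target of CREB, differed by 0.09 (SE 0.132). The secreted peptides Vgf and Scg2 differed by -0.01 and 0.07, and the pentraxin Nptx2, which gathers AMPA receptors, by -0.06. Within the middle arrays the slopes of 9 of the 20 were positive.

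Among the factors that carry activity to the nucleus, in the MAP kinase, CREB and SRF pathway, 14 of 21 were higher and 0 passed. The median was 0.09 (0.05 without XY male 2). With the mean of striatal neuron markers per array as a further term it was 0.003, with 11 of 21 higher. Within the middle arrays 10 of the 21 slopes were positive. The stress kinase gene Mapk14 differed by 0.18 (SE 0.0621) and Rps6ka3, a kinase that phosphorylates CREB, by 0.29 (SE 0.105). Map2k2, a kinase upstream of ERK, and Prkaca, the catalytic subunit of protein kinase A, were at -0.13 and -0.11. Ion channel genes of excitability had a median of 0.05 with 16 of 23 higher. That median was 0.01 without XX female 7, and without the XX females it was -0.01 with 11 of 23 higher. The list mean differed by 0.03 within batch 1 and by 0.24 within batch 2. Kcnip2, a subunit of A-type potassium channels, differed by 0.41 (SE 0.137, adjusted p = 0.301) and Cacng3, an AMPA receptor partner, by 0.34 (SE 0.128), with another Cacng3 probe at 0.15 (SE 0.117). The median for glutamate transmission was 0.06 with 8 of 13 higher, and Dlg4 was at -0.18 (SE 0.0727). That median was -0.04 without XY male 8, and -0.02 with 5 of 13 higher without the XX females. The glutamate list mean differed by -0.06 within batch 1 and by 0.34 within batch 2. GABA transmission had a median of 0.0055, and -0.02 without XX male 7, with 5 of 10 higher. Gad1, which makes GABA, was at 0.30 (SE 0.111) and Gabra3, of the same list, at -0.18 (SE 0.0662). No member of these lists passed.

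Hormone and stress lists also held no gene past the threshold. The glucocorticoid response, induced by corticosterone, had a median of 0.10 (0.06 without XX female 1) with 17 of 22 higher and 0 past the threshold. Pdk4, a brake on pyruvate dehydrogenase, differed by 0.40 (SE 0.115, adjusted p = 0.243) and Ddit4, an inhibitor of mTOR, by 0.32 (SE 0.0918). Cdkn1a, at 0.54 the largest difference of this list, is also counted among the late genes, so these lists share a member. The glucocorticoid list mean reached 0.51 on XX female 1, the highest of the high arrays. Its median was -0.11 on the high and -0.13 on the low arrays. The mean of the late list was also highest on XX female 1, at 0.35. Heat shock genes had a median of 0.02, and their list mean differed by 0.08 within batch 1 and by -0.08 within batch 2. Clock genes had a median of -0.005, which turned to 0.02 without XX female 1, with the clock factor Npas2 at 0.58 (SE 0.138, adjusted p = 0.201). Genes of ER stress and hypoxia had a median of -0.03, and 0.015 without XY male 8. Their list mean differed by 0.05 within batch 1 and by -0.11 within batch 2.

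**Figure D3:**
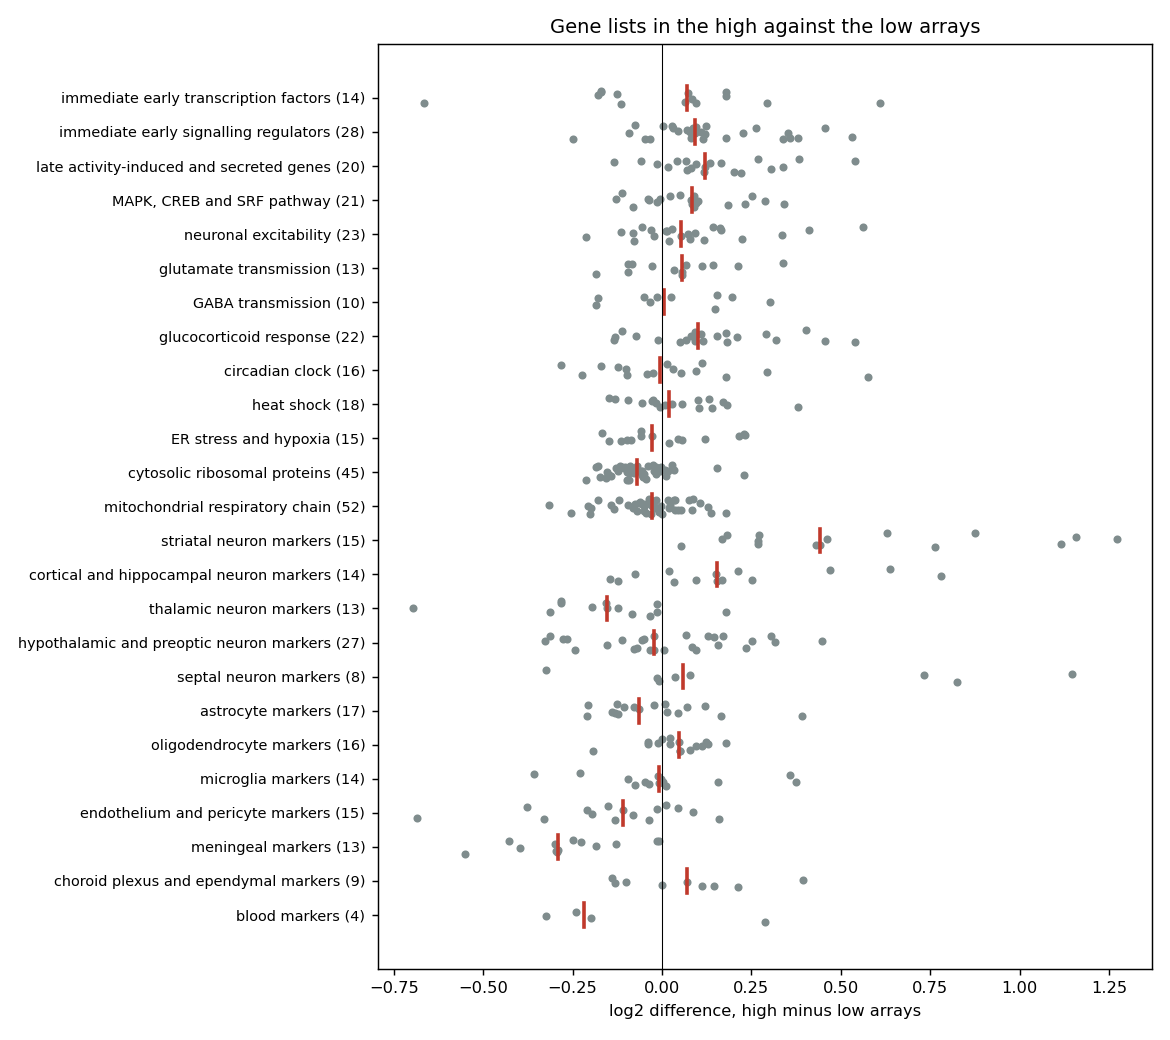
Each point is 1 tested gene of a list, placed by its log2 difference between high and low arrays, with the number of tested members in brackets and a red bar at the list median. The striatal markers lie all to the right of 0 with a median of 0.44, while the immediate early, signalling and late lists have medians of 0.07, 0.09 and 0.12 and no listed gene passed the threshold.

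The largest list median was that of a neighbouring tissue. The 15 tested markers of striatal neurons, which border the BNST, were all higher on the high arrays, with a median of 0.44 beside -0.00065 over all genes, and 0 passed. Gng7, a G protein subunit of striatal neurons, lay at 10.70, 11.20 and 12.75 on the high arrays and at 10.39, 10.56 and 10.71 on the low arrays, a difference of 0.76 (SE 0.229, adjusted p = 0.267). Rarb, a retinoic acid receptor, differed by 0.87 (SE 0.287), Arpp21, a target of dopamine signalling, by 1.27 (SE 0.425), and the dopamine receptor Drd1 by 1.16 (SE 0.43). In bulk tissue, a different number of cells of a type and a different amount of RNA per cell cannot be told apart.

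That difference came from some of the high arrays. The striatal list mean, as log2 deviation from the mean of all arrays, was 1.58 on XY male 2, 0.66 on XX male 8, 0.43 on XX female 7, 0.37 on XX male 5 and 0.15 on XX female 4. The other 3 high arrays lay between -0.23 and -0.16, within the low arrays, which spanned -0.33 to -0.04. Of the middle arrays 3 stood above 0, led by XX male 6 at 0.57. Without XY male 2 the median over the list was 0.31 with 15 of 15 higher, and within the middle arrays 7 of 15 slopes were positive. Markers of cortical and hippocampal neurons had a median of 0.15 (0.09 without XX female 3) with 11 of 14 higher. Cux2, a factor of upper cortical layers, was at 0.47 (SE 0.113, limma adjusted p = 0.201). The cortical list mean was highest on XX male 8 at 0.55, and it differed by 0.06 within batch 1 and by 0.57 within batch 2. The part of tissue outside the target in the differences of single genes was not tested. With the striatal list mean as a further term the Egr1 difference was 0.79 (limma adjusted p = 0.122). With the cortical mean it was 0.73 (limma adjusted p = 0.133), so Egr1 passed in neither fit.

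Most thalamic and meningeal markers had negative differences, while the list means of the arrays spread widely and did not share that order. The median list mean was 0.21 on the high and 0.19 on the low arrays for thalamic markers, and -0.58 and -0.76 for meningeal markers. The mean thalamic difference was -0.35 within batch 1 and 0.37 within batch 2. Of 13 thalamic markers 1 was higher, Cplx1, a synaptic regulator, at 0.18 (SE 0.0643), and the median was -0.15. Without XY male 2 the median was -0.06 and without XY male 5 it was -0.02, and in the middle arrays the slopes ran the other way, with 12 of 13 positive and 8 at an unadjusted p under 0.05. All 13 meningeal markers had a negative difference, with a median of -0.29, and their list means spanned -1.14 to 0.79 on the high and -0.88 to 1.53 on the low arrays. Without XXY male 4 that median was -0.0027, and without the XX females it was 0.07. In the middle arrays 12 of 13 meningeal slopes were negative and 12 had an unadjusted p under 0.05, beside 6.73% of all tests there. No thalamic or meningeal marker passed in either comparison.

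Markers of the target tissue itself had differences of both signs between the sides. Of 27 hypothalamic and preoptic markers 13 were higher, with a median of -0.02, which turned to 0.05 without XX male 7. Within the middle arrays 3 of the 27 slopes were positive, with a median of -0.24 per unit of score. An unadjusted p under 0.05 was reached by 5 of the 27, beside 6.73% of all tests there. Nnat, an imprinted gene of neuroendocrine neurons, differed by -0.31 (SE 0.0971, adjusted p = 0.282), with another probe at -0.48, and the peptide gene Adcyap1 by -0.33 (SE 0.146). Kiss1, which encodes kisspeptin, differed by 0.32 without passing. Septal markers had a median of 0.06 (0.02 without XY male 8), with Chat, the enzyme of acetylcholine synthesis, at 1.15 (SE 0.539) and another of its probes at 0.98. The septal list mean stood above 0 on 7 of 8 high and 3 of 8 low arrays, with medians of 0.27 and -0.19. It spanned -0.568 to 0.488 on the high and -0.639 to 0.675 on the low arrays. In the middle arrays 3 of 8 septal slopes were positive.

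**Figure D4:**
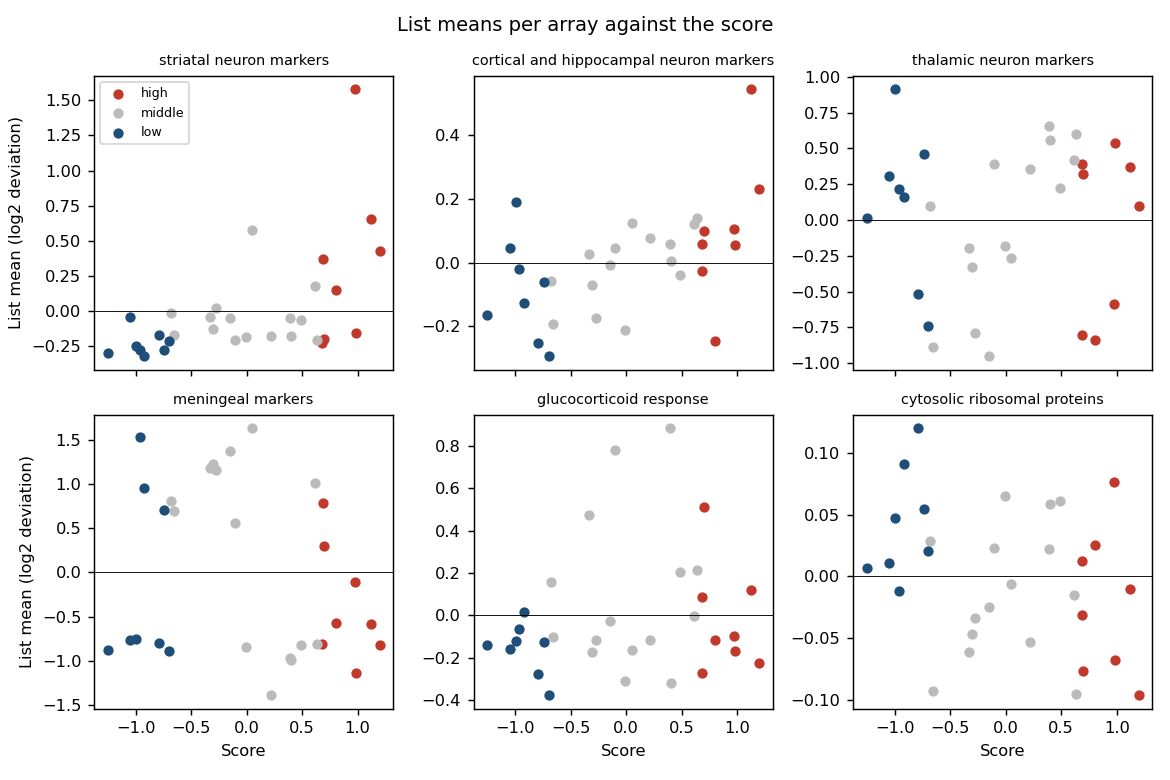
Each panel plots the list mean of 1 gene list per array (mean log2 deviation of its members from their means over 31 arrays, batch difference removed) against the score, with high arrays in red, middle arrays in grey and low arrays in blue. Striatal markers are raised on 5 of the 8 high arrays, up to 1.58, and on 0 of the 8 low arrays, while the meningeal and thalamic means spread widely on both sides.

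Glial and vascular lists had small medians. They were -0.06 for astrocytes, 0.05 for oligodendrocytes, -0.0093 for microglia and -0.11 for endothelium and pericytes, and 0.07 for choroid plexus and ependyma. Of 16 oligodendrocyte markers 12 were higher on the high arrays. Within the middle arrays 1 of the 16 slopes was positive, with a median of -0.10 per unit of score. Without XX male 7 the astrocyte median was -0.02, and without XX male 8 the microglial and endothelial medians were 0.01 and -0.04. Of 14 microglial markers 9 were lower and 5 higher. The complement genes C1qb and C1qc, made by microglia, had the smallest p of these 14, at 0.36 (SE 0.113) and 0.37 (SE 0.136), and slopes of -0.41 and -0.34 within the middle arrays. Itm2a, an endothelial membrane protein gene, was at -0.33 (SE 0.0722, adjusted p = 0.201), the smallest p of these lists. The median of the 4 blood markers tested was -0.22 (-0.08 without XY male 8).

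Genes of protein synthesis and respiration leaned lower by small amounts. Of 45 cytosolic ribosomal protein genes 38 were lower, with a median of -0.07 and 0 past the threshold, and Rps6 and Rpl34 were at -0.18 (SE 0.0594) and -0.19 (SE 0.0632). The list mean stood above 0 on 3 of 8 high and 7 of 8 low arrays. Of 52 respiratory chain genes 36 were lower, with a median of -0.03 (-0.015 without XX female 7). Without the XX females the ribosomal median was -0.03 with 16 of 45 higher, and the respiratory median -0.01 with 25 of 52 higher. Within the middle arrays 31 of the 45 ribosomal and 43 of the 52 respiratory slopes were positive, opposite in sign to the comparison of sides.

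Taking the score as a graded term over all 31 arrays passed 18 of 11708 genes, or 0.154%, with 14 rising and 4 falling with the score. This fit holds the 16 arrays of the comparison of sides and is not independent of it. Egr1 rose by 0.37 per unit of score (SE 0.0555, adjusted p = 0.00215). Others that rose were Npas2, a paralogue of the clock factor CLOCK, by 0.36 (SE 0.0738, adjusted p = 0.0336), Smpd3, a neutral sphingomyelinase, by 0.20, and Arhgef3 by 0.15. The kinesin light chain gene Klc1 rose by 0.36 (SE 0.0748), and its other 4 probes differed between the sides by 0.32 to 1.89. The largest slope of the 18 was that of 6430571L13Rik, at 0.83 (SE 0.176, adjusted p = 0.0337).

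The genes that fell were Nr2f2, Tram1, Nme6 and the unnamed probe ILMN_2671128. Nr2f2, a nuclear receptor that patterns the forebrain and interneurons, fell by 0.31 per unit of score (SE 0.0656, adjusted p = 0.0337), and Tram1 fell by 0.14 (SE 0.0257, adjusted p = 0.0218). Nme6, of the nucleoside diphosphate kinase family, fell by 0.26 (SE 0.0507, adjusted p = 0.0274), while its other probe differed between the sides by -0.09. Sh3rf3, Dennd2a, Spata2l, Cdca7, Sbk1, Rab11fip3, Josd1 and the unnamed probe ILMN_2642681 completed the 18, all rising. In each of the 18, the difference between high and low arrays had the same sign within batch 1 and within batch 2. The 18 were chosen by a fit to these same arrays, and batch 2 has 2 high and 2 low arrays. The shared sign is therefore a description and not a replication. Of the 11 named genes among them with an entry in the promoter table, 6 of 15 promoters held the CREB half-site letters, or 40%, beside 20.8% of all promoters. Some of these genes count with more than 1 promoter, and the difference in shares was not tested.

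The middle arrays gave no call by themselves. With the score as a graded term, 0 of 11708 genes passed (limma, smallest adjusted p = 0.22), and 788 had an unadjusted p under 0.05, or 6.73%, where chance gives 585. These arrays span a narrower range of scores, so a slope there is less precise. Of the 1305 genes at an unadjusted p under 0.05 between the sides, 739 had the same sign within the middle arrays, and of the 100 with the smallest p, 62 did, beside 6152 of all 11708. Of the 18 genes, whose fit used these arrays too, 6 had an unadjusted p under 0.05 within them. Their slopes were 0.46 (SE 0.133) for Spata2l, 0.64 (SE 0.197) for Npas2, -0.49 (SE 0.215) for Nr2f2 and -0.22 (SE 0.0837) for Tram1, and 0.32 and 1.12 for Cdca7 and 6430571L13Rik. Xpnpep3 had the opposite sign there, at -0.26 per unit of score (unadjusted p = 0.0496).

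The relation to the score was also set between the sexes. Over the 31 arrays, the slope in the 8 females minus that in the 23 males passed in 0 of 11708 genes (limma, smallest adjusted p = 0.999), with 426 at an unadjusted p under 0.05. For Egr1 the slope was 0.44 in females and 0.36 in males, a difference of 0.08 (unadjusted p = 0.578).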

How the data were processed

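RNA of 31 samples was measured on Illumina bead arrays. Per the file headers, the scanner table lists 25697 probes with a linear bead intensity and a detection p-value on each array. Its bead errors and bead numbers, signal columns per the file headers, were not used in tests. The authors' deposited log2 table of 12980 probes gave the ranking, with 1 probe per ranking gene, and the submitters' processing notes name limma. The scanner software and any batch treatment are not stated in them. Every tested value came from the scanner table, normalized here with neqc of limma 3.58.1 (R 4.3.3, offset 16, background from detection p-values). Probes detected (p under 0.05) on at least 7 arrays were kept, and a gene was represented by its probe of highest mean. Symbols came from the platform annotation, updated through RefSeq GRCm38.p6 (5 updated, 1 unmatched). The model held side and batch. The number of arrays limits the precision. Members and 25 gene lists were chosen with earlier results of these data known, so counts over lists are descriptions. Named genes were those passing, the 5 of smallest p and, from each list, members of smallest p; others were named after their values were seen, and 1 gene of the rule is not reported here. Scripts were checked on simulated data.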

Additional observations from a re-analysis of the deposited data

Results flagged for a closer look

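A sample far from the others of its set was looked for in 66 sets of 7 or 8 arrays by Dixon's test. A set was a side for single genes and list means, and a genotype group for the score. In 2 sets a sample stood out, where chance gives about 1 in 20. Fosb, the relative of Fos, was at 6.19 on XX female 2, while the nearest of the other high arrays was at 6.55 (log2 signal, batch difference removed). The mean of the septal neuron markers was -0.568 on XX female 1, while the nearest of the other high arrays was at 0.0689.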

How the results depend on the processing

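Egr1 remained the single gene past the threshold with the authors' processed values, without background correction, with cyclic loess, with no filter on dim probes, with probes detected on all 31 arrays, with XX male 6 counted in batch 2, and with the thalamic, the hypothalamic and preoptic, or the meningeal list mean as a further term. No gene passed without a batch term (Egr1 difference 0.76), with batch as a random block (0.76), with batch and genotype group as terms (0.75), in batch 1 arrays only (0.75), in batch 2 arrays only (0.78), with the 5 highest and 5 lowest arrays (0.82), with a score without Fos (0.59), with the mean of cortical (0.73), oligodendrocyte (0.76) or glucocorticoid (0.76) lists as a term, or without the XX females (0.72), and each such count was 0, with 536 to 1254 genes at an unadjusted p under 0.05. Other genes passed and Egr1 did not with a score from the values normalized here, batch difference removed (2 genes, Egr1 0.69). The same held for a score without Egr4 (2 genes, 0.68) or without Arc (1 gene, 0.69), and with the striatal list mean as a term (1 gene, 0.79). Egr1 was among 5 genes with the 10 highest and 10 lowest arrays, 5 with a score without Junb, and 18 with the score as a graded term. Leaving out each array in turn gave 0 to 2 genes and Egr1 differences of 0.72 to 0.83. Fisher's exact test of the make-up by group gave p = 0.0185 with a score from the values normalized here, batch difference removed. For the graded term over 31 arrays, chosen after seeing the data, the authors' values gave 39 genes (25 higher), among them all 18, and 25 passed without XX male 6 and 14 with it counted in batch 2. For the middle arrays the count stayed at 0, with 764 to 1082 at an unadjusted p under 0.05. Signs turned for Dnaja1 (-0.046), Mog (0.0591) and Trf (-0.0271) in batch 2 arrays only, for Trf with a score without Arc (-0.0835), and for Hbb-bt with the 5 highest and 5 lowest arrays (0.20) and a score without Fos (0.10). Within single batches, signs also turned for Kdm6a (-0.01, batch 1), Nr4a2 (0.0059, batch 2), Scg2 (-0.13, batch 2), Nptx2 (0.52, batch 2) and Vgf (0.04, batch 1). The causes were not tested. Same-numbered samples of different groups did not deviate together (45 pairs, correlations -0.239 to 0.31, median 0.0387), and with a replicate block added to batch 0 genes passed, with Egr1 at 0.68 (adjusted p = 0.0537).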
